A study of Mus musculus with 69 samples.

Results

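Interferon-stimulated genes were followed in mouse CD4 T cells that were turned into type 1 regulatory (Tr1) cells in culture and that lacked, by their labels, 1 or 2 transcription factors. The 46 genes described here were chosen by symbol as textbook interferon-stimulated genes other than the large and small immunity GTPases; Mx1 and Mx2, which are dynamin-like GTPases, are among them. All 46 were found among the 23366 genes of the deposited tables. Expression was read as CPM, the expected count of a gene scaled to a common library total, and each knockout was compared with its own controls.

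All groups shared the culture: naive CD4 T cells kept for 72 h with 25 ng/ml of IL-27 and 1 ug/ml of anti-CD3, beside which an anti-CD8 antibody is listed, and then lysed at 2000 cells per library. Of 69 libraries, 63 were used: the 4 Cebpb libraries, replicate 3 of the double knockout and replicate 1 of the Fosl2 knockout were left out. Those left out held too few usable counts. Knockouts by Cre were CD4 Cre(+/-) with Prdm1 f/f, with Maf f/f, with both, or with Fosl2 f/f, Hif1a f/f, Nfil3 f/f or Stat3 f/f, then Actin Cre(+/-) with Atf3 f/f and dLck Cre(+/-) with Irf8 f/f. CD4 Cre and dLck Cre act in T cells, so other cells of those mice keep the gene, whereas Actin Cre acts in most tissues. Ahr, Batf, Ets1, Irf1, Irf4, Irf9 and Tbx21 are labelled as knockouts or KO only. Controls were Cre- cells for Prdm1 and Maf, cells with the floxed alleles alone for Atf3, Fosl2, Hif1a and Nfil3, and WT cells for the rest, Irf8 and Stat3 included. Irf9 cells and their controls were BALB/c, and all others C57BL/6. Ages are not given in the labels. Whether replicates are separate mice or cultures is not stated, so the tests measure the spread between these libraries, which may be technical.

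Interferons bind receptors at the cell surface and activate the kinases JAK1, JAK2 and TYK2. Type I interferon then activates the complex ISGF3, in which IRF9 binds interferon-stimulated response elements (ISREs), while interferon-gamma acts through gamma-activated sequences (GAS) and raises IRF1, which itself binds ISRE-like sites. The induced genes make proteins that sense viral RNA, degrade it, block virus entry or load peptides onto MHC class I, and some, such as Usp18, dampen the signal again.

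ISRE letters stood close to the start sites of some of the members with a promoter sequence. RefSeq promoters of build GRCm38.p6 matched 31 of the 46 genes by symbol, and the 250 bases before each start site were searched on both strands for GAAANNGAAA (ISRE), GGAANNGAAA (the ETS and IRF composite element bound with IRF4 or IRF8) and TTCNNNGAA (GAS). The ISRE letters were present in 8 of 31 member promoters (25.8%) and in 2.98% of all 32851 promoters, the composite letters in 2 (6.45%) and 2.30% of all, and the GAS letters in 6 (19.4%) and 7.02% of all. ISRE and composite matches can overlap each other. No promoter was matched for Ifi27l2a, Usp18, Ifi27l1, Zbp1, Dhx58 or Ly6a, which were called in 5 to 9 knockout comparisons each, so these were not searched. The 5 stretches below are shown because these genes rose most without Irf4 (Ifit1, Rsad2), fell without Irf9 (Oas3, Bst2) or moved both ways (Isg15), and because they hold the ISRE letters; they were chosen after the values were seen. Each runs 5′ to 3′ on the strand of its gene, and capitals mark the ISRE letters on either strand.
Isg15, chr4:156200819-156200938, minus strand, bases -120 to -1 from the start site: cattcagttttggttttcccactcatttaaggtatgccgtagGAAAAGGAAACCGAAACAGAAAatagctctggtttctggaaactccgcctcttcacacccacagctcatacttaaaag
Ifit1, chr19:34640769-34640888, plus strand, bases -120 to -1: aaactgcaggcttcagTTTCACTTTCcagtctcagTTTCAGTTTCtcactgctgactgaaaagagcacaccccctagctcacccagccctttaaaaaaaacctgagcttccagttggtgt
Rsad2, chr12:26456453-26456572, minus strand, bases -120 to -1: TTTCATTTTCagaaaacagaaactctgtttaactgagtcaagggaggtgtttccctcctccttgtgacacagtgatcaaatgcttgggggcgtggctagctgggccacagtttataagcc
Oas3, chr5:120777660-120777779, minus strand, bases -120 to -1: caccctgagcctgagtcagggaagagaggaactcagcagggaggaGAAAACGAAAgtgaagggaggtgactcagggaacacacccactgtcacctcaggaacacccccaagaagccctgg
Bst2, chr8:71537547-71537666, minus strand, bases -194 to -75: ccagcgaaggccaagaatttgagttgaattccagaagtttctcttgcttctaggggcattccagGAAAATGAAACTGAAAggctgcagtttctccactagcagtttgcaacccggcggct
Isg15 and Bst2 hold overlapping copies, Ifit1 holds 2 separate ones, and Oas3 and Rsad2 hold 1 each. A match of letters is a description and says nothing of binding in these cells.

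CD4 T cell markers (7 genes) summed to at least 1251 CPM in every library used. Library totals ranged from 743445 to 15221850 counts with a median of 2425249, and 10434 to 13880 genes had a count. The precursor ribosomal RNA gene Rn45s took 1.18% to 43.7% of the counts, the highest share in replicate 1 of the Irf8 knockout and the next, 40.9%, in the Fosl2 knockout library. Replicate 2 of the Irf8 knockout had 3.52%, and the 2 Fosl2 controls had 34.0% and 39.6%. The targeted transcript fell with an adjusted p under the threshold in the Prdm1, Maf, double, Batf, Stat3, Irf4 and Tbx21 knockouts. It did not pass in Irf1 (mean 47.7 against 78.8 CPM), Irf9 (23.7 against 36.2 CPM), Fosl2, Hif1a, Irf8 or Nfil3. Ahr and Ets1 did not pass either, and their means were higher in the libraries labelled knockout (13.2 against 7.22 CPM and 794 against 702 CPM). In all of these, counts per gene cannot show a deletion that leaves a transcript. Atf3 went against its label, with 75.1 and 85.7 CPM in the libraries labelled knockout and 14.6 and 27.1 CPM in the controls. By Xist and Ddx3y, the knockout libraries were male and the control libraries female in the Ahr, Atf3, Ets1 and Irf4 experiments, so sex and genotype cannot be told apart there.

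In control cells the 46 genes covered a wide range of levels per length. Ly6a (Sca-1, a surface protein of activated T cells) led with a median of 2712 TPM over 11 control groups. It was followed by Psmb8, a subunit of the immunoproteasome that cuts peptides for MHC class I, at 618 TPM, by Ly6e at 467 TPM and by Ifi27l2a at 336 TPM. Ly6a was the highest of these 4 in every control group, with group means from 2021 to 5407 TPM. The other 3 changed places between groups: Psmb8 ran from 456 to 1635 TPM, Ly6e from 361 to 1458 TPM and Ifi27l2a from 184 to 2057 TPM. Psmb9 (316 TPM), Tap1 (292 TPM, the peptide transporter subunit), Ifitm2 (140 TPM) and the tetherin gene Bst2 (134 TPM) came next. At the other end stood several classical antiviral effectors. Medians were 1.68 TPM for Ifit1, 0.33 TPM for Rsad2 (viperin), 0.35 TPM for Mx1, 0.21 TPM for Oasl2 and 0.02 TPM for Oas2. Ifit3, Oas2 and Rtp4 passed the filter on low counts in no comparison, with at most 15, 6 and 10 counts in any library, so nothing is said of their direction. The 46 genes together made up 2610 to 8783 CPM.

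Across 16 knockout comparisons, 592 tests of members gave 125 calls at an adjusted p under 0.05 (edgeR quasi-likelihood test, Benjamini-Hochberg over all genes of a fit), 72 higher and 53 lower in the libraries labelled knockout. Without the Atf3 comparison, where the Atf3 transcript goes against the labels, there were 65 higher and 52 lower of 562 tests. Of the 46 members, 26 passed the filter in all 16 comparisons and 39 were called at least once; a member that passes the filter only where it is high is more likely to be called there. Ifit3, Oas2, Rtp4, Mx1, Mx2, Ifi35 and Cmpk2 were called nowhere, the first 3 because they were never tested. Ifi27l2a was called in 9 comparisons, Usp18 and Ifi27l1 in 7 each, Oas3 and Zbp1 in 6 each, and Dhx58 and Ly6a in 5 each. Directions were mixed, and 21 members were called in both directions in different knockouts, with or without Atf3. The Prdm1, Maf and double knockouts share controls, as do Batf, Irf1, Irf8 and Stat3, so counts over comparisons are not independent. Values per library are given below mostly for called members, so groups that do not overlap are expected from that choice. How often groups separate over all genes was not counted.

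**Figure D1:**
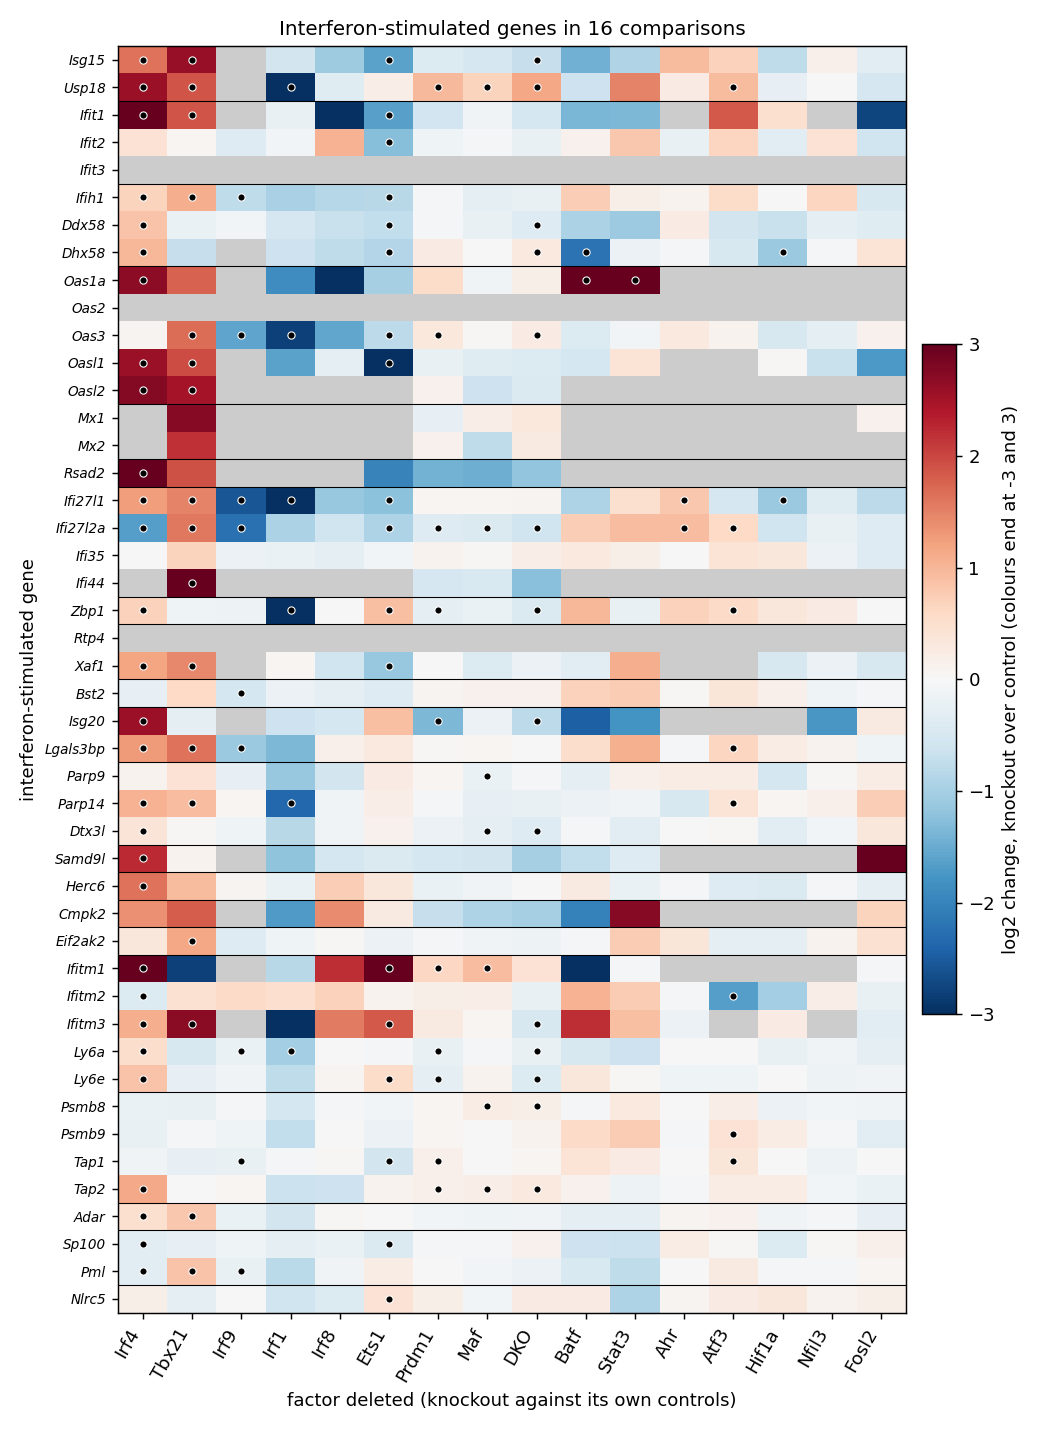
Log2 change of each of the 46 genes (rows, grouped by role) in 16 comparisons (columns, knockout against its own controls), with red for higher and blue for lower in the knockout, grey for genes below the filter, and a black point where the adjusted p is under 0.05. The Irf4 and Tbx21 columns are mostly red, with 25 and 17 rises, whereas the points in the Irf9 and Irf1 columns, 9 and 6, are all falls.

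Loss of Irf4 gave the most calls. IRF4 is a factor that T cells raise on receptor stimulation. Of 40 members tested, 25 rose and 4 fell, 29 in all, where 14.8% of the 10477 genes tested rose and 13.2% fell (28.0% called in either direction). The median log2 change of the members was 0.86 against -0.01 over all genes. All 3 genes of the ISG15 system rose, as did all 4 sensors of RNA and DNA and 3 of 4 tested OAS genes; antigen processing stood apart, with 1 of 5 genes higher. Both nuclear body genes, Pml (-0.31 ± 0.11 SE) and Sp100 (-0.35 ± 0.11), fell with edgeR, but neither passed with DESeq2. DESeq2 called 23 members, 22 higher and 1 lower. Of 7 tested members whose promoter holds the ISRE letters 4 rose and 1 fell, and of 22 without them 13 rose and 2 fell.

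Ifit1, which binds foreign RNA, stood at 27.2 and 22.4 CPM in the 2 Irf4 knockout libraries and at 2.04, 2.84 and 1.45 CPM in the 3 controls. The groups lay far apart, with a log2 change of 3.79 ± 0.32 (SE; adjusted p = 1.31e-09, edgeR). Usp18, the protease that removes ISG15 and dampens the type I receptor, stood at 66.8 and 64.0 CPM against 7.47, 12.3 and 12.5 CPM (2.58 ± 0.17; adjusted p = 2.1e-11, edgeR). Both knockout libraries again lay above every control, as for Ifit1. Isg20, an RNA exonuclease, had 23.9 and 25.6 CPM against 2.24, 5.68 and 4.58 CPM (2.58 ± 0.27). Isg15, the ubiquitin-like modifier itself, had 26.4 and 21.0 CPM against 10.4, 8.52 and 6.99 CPM (1.63 ± 0.24), and its ligase in mouse, Herc6, rose by 1.63 ± 0.25 on the log2 scale. No member of this system overlapped between the groups.

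Rises of scarce effectors were as large on the log2 scale but rest on few counts. Like Ifit1, they passed the filter through the knockout libraries, where they were high, so a call there was more likely. Rsad2 had 5.84 and 4.98 CPM without Irf4 and 0, 0 and 0.96 CPM in the controls (3.14 ± 0.65), and Ifitm1, which blocks virus entry, had 9.52 and 4.27 CPM against 0, 0 and 1.45 CPM (2.98 ± 0.62). Oasl2 rose by 2.74 ± 0.46, Oas1a, a maker of the messenger that activates RNase L, by 2.68 ± 0.30, and Oasl1 by 2.58 ± 0.33. The neighbour of Rsad2, Cmpk2, a nucleotide kinase, was at 3.56 and 5.34 CPM against 3.73, 1.89 and 0.96 CPM and did not pass (1.37 ± 0.56, adjusted p = 0.0713, edgeR). The sensors moved less: Dhx58 (LGP2) by 1.01 ± 0.12, Ddx58 (RIG-I) by 0.86 ± 0.14, Zbp1 by 0.68 ± 0.13 and Ifih1 (MDA5) by 0.66 ± 0.16.

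Falls without Irf4 included a gene that is abundant in control cells. Ifi27l2a stood at 28.5 and 38.4 CPM in the knockout and at 115, 89.9 and 114 CPM in the controls, a log2 change of -1.66 ± 0.14 (adjusted p = 2.04e-09, edgeR). Its neighbour on chromosome 12, Ifi27l1, went the other way, from 63.1 to 144 CPM on average (1.26 ± 0.10). Ifitm2 was at 43.2 and 44.8 CPM against 53.8, 57.8 and 65.8 CPM (-0.41 ± 0.13), opposite to Ifitm1 and Ifitm3 of the same cluster. With DESeq2 neither the Ifitm2 fall nor the Ifitm3 rise passed. In antigen processing, Tap2 rose from 91.3 to 193 CPM (1.14 ± 0.10), while Psmb8 (-0.21 ± 0.08), Psmb9 (-0.21 ± 0.10), Tap1 (-0.10 ± 0.08) and Nlrc5, a transactivator of MHC class I genes (0.18 ± 0.09), did not pass. Dtx3l rose slightly (0.40 ± 0.09), and Parp9, its partner on the other strand, did not pass (0.11 ± 0.11).

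**Figure D2:**
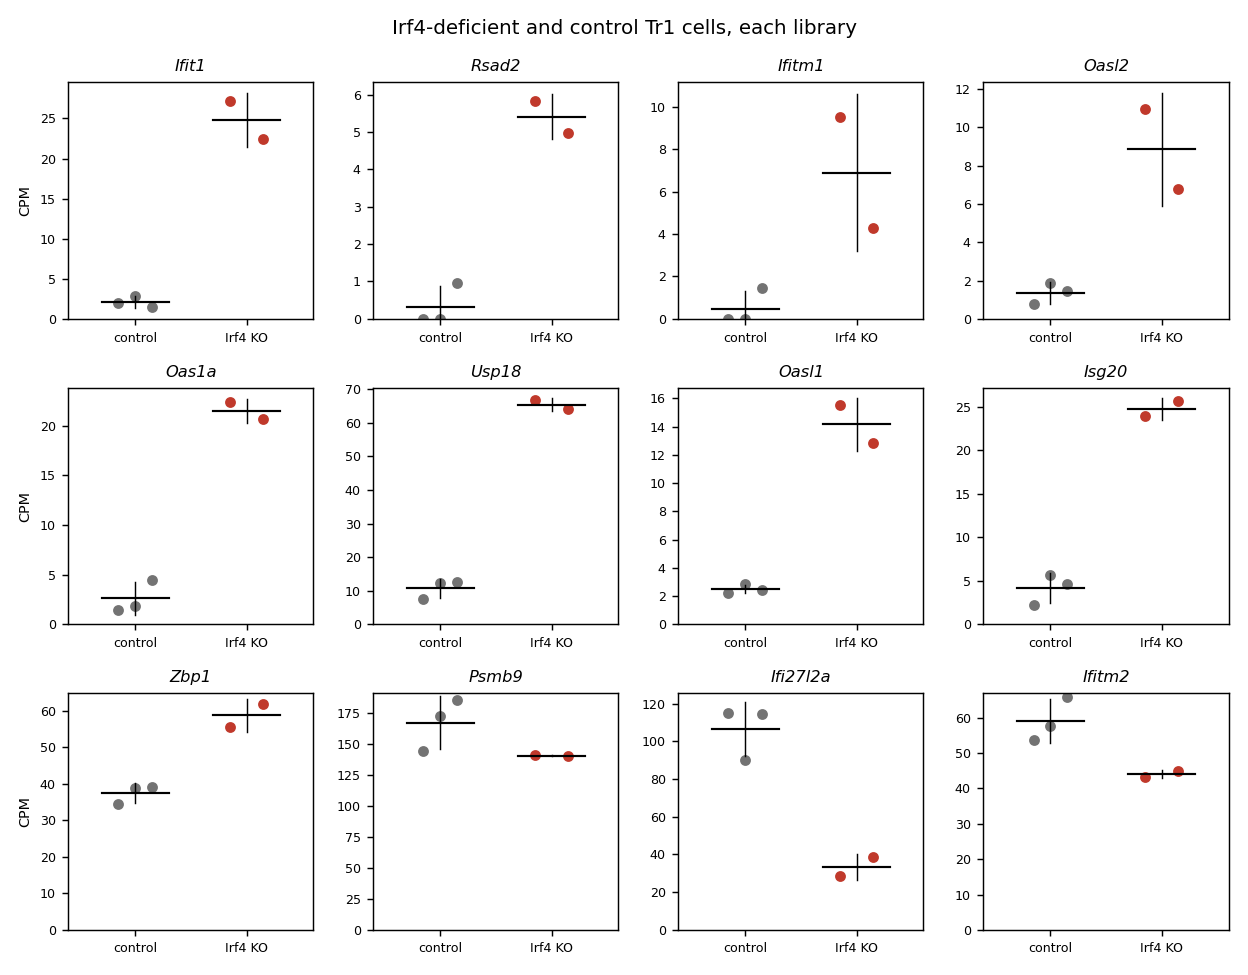
CPM of 12 of the 46 genes in each of 3 control libraries (grey) and 2 Irf4 knockout libraries (red), with the group mean and SD as black lines; each panel has its own axis from 0. Ifit1 to Zbp1 were higher in both knockout libraries than in any control, and Ifi27l2a and Ifitm2 were lower; Psmb9 did not pass the test.

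Genes of the interferon pathway outside the list also moved without Irf4, 8 up and 5 down of 26 tested. Ifng, which encodes interferon-gamma, rose by 2.67 ± 0.13 to a mean of 356 CPM, Irf7, a factor that amplifies type I interferon, by 1.97 ± 0.25, and the inhibitors Socs1 and Socs3 by 1.68 ± 0.10 and 1.08 ± 0.08. Irf1 (-0.38 ± 0.11), Irf2 (-0.76 ± 0.12) and Jak2 (-1.02 ± 0.10) fell. Irf4 itself fell by 1.15 on the log2 scale, with 190 and 188 CPM against 419 to 461 CPM. Markers of CD8 T and NK cells summed to 52.2 to 56.7 CPM in the knockout and 15.2 to 18.1 CPM in the controls, with 1 of 3 tested genes higher. B cell markers summed to 28.5 to 30.9 against 18.2 to 26.2 CPM, CD4 T cell markers to 1966 to 2001 against 2421 to 2474 CPM (1 higher and 3 lower of 7), and myeloid markers to 1.5 to 2.5 against 4.8 to 6.7 CPM. The part of these markers in the changes was not tested, nor was that of sex. Controls 1 and 2 differed by little more than sampling noise (chi-square per degree of freedom 1.10), and with the pair summed 28 members were called, 25 of them higher.

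Loss of Tbx21 (T-bet, the factor that drives Th1 cells and Ifng) gave only rises among the called members. Of 43 tested, 17 rose and 0 fell, where 2.99% of the 10978 genes tested rose and 3.73% fell (6.72% either way), and 27 members had an unadjusted p under 0.05. DESeq2 called 16 members, all higher. With replicate numbers as a block 22 were higher and 1 lower, and 1 fit over all usable libraries gave 26 and 3. Of the 43, called or not, 30 had a positive and 13 a negative log2 change. The median log2 change of the members was 0.86 against 0.01 over all genes. Both double-stranded RNA handlers, Eif2ak2 (PKR, 1.16 ± 0.20) and Adar (0.81 ± 0.18), rose, as did 3 of 4 OAS genes, and none of the 5 antigen processing genes passed.

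Isg15 had 52.8 and 39.5 CPM without Tbx21 and 7.37 and 6.58 CPM in the controls (2.60 ± 0.23 SE; adjusted p = 0.00147, edgeR). Ifitm3 had 34.6 and 25.0 CPM against 4.21 and 4.14 CPM (2.72 ± 0.27; adjusted p = 0.00215, edgeR). Usp18 had 33.0 and 34.1 CPM against 7.37 and 9.25 CPM (1.90 ± 0.22), and in these 3 genes both knockout libraries lay well above both controls. Ifi44 had 8.20 and 2.92 CPM in the knockout and no count in either control. The knockout mean was 8.91 times a floor of 3 counts per control library, and knockout 2 alone lay nearer that floor. Ifi44 passed the filter through the knockout libraries, where it was high, so a call there was more likely. Oasl2 rose by 2.51 ± 0.52, Oasl1 by 1.96 ± 0.35, Ifit1 by 1.89 ± 0.38 and Oas3 by 1.68 ± 0.24.

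The 2 Tbx21 knockout libraries did not respond alike. Ifi27l2a had 231 and 88.0 CPM against 53.7 and 43.4 CPM, Oas3 had 212 and 126 CPM against 53.0 and 44.0 CPM, and Zbp1 had 55.4 and 19.5 CPM against 39.8 and 35.8 CPM. Knockout 1 was the higher in each, and for Zbp1, a sensor of Z-form nucleic acids, which did not pass, the controls lay between the 2 knockout libraries. Mx1 (5.17 and 2.69 against 0.25 and 0.91 CPM) and Mx2 (8.79 and 2.69 against 1.01 and 1.15 CPM) did not pass either, with adjusted p = 0.0584 and 0.0822 (edgeR). Without control 1 the count of called members fell to 8, all higher. Without knockout 1 it was 22, of which 16 were higher and 6 lower, and without knockout 2 it was 26.

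Ifng went the opposite way to the called members: it had 0.22 and 0 CPM in the Tbx21 knockout and 24.8 and 172 CPM in the controls. Of 27 pathway genes tested, 5 rose and 2 fell; Irf7 rose by 2.56 ± 0.39, Ifngr2, a chain of the interferon-gamma receptor, by 2.26 ± 0.22, Tlr7, an endosomal RNA sensor, by 2.34 ± 0.50, Jak2 by 1.10 ± 0.19 and Socs1 by 0.83 ± 0.19, while Ifngr1 fell by 1.63 on the log2 scale. Myeloid markers summed to 2.0 to 5.1 CPM in the knockout and 5.0 to 6.8 CPM in the controls, and plasmacytoid dendritic cell markers other than Bst2 to 2.0 to 2.3 and 2.3 to 3.3 CPM. Neither range reached above that of the controls, and B cell markers summed to 29.0 to 45.0 against 20.1 to 23.3 CPM with none of 4 tested genes called. CD8 T and NK cell markers were also higher, at 24.9 to 26.0 against 15.5 to 17.3 CPM (none of 2 tested genes called), and 2 of 7 CD4 T cell markers fell; their part was not tested.

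**Figure D3:**
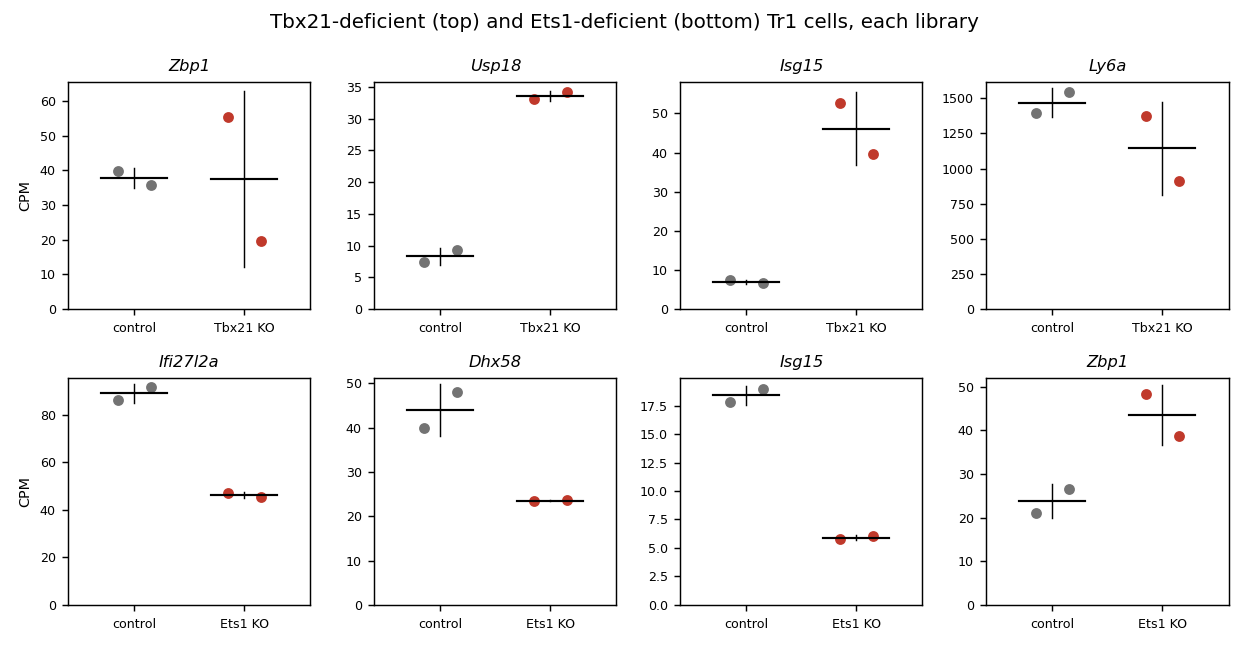
CPM of 4 genes in the Tbx21 experiment (top) and 4 in the Ets1 experiment (bottom), 2 control (grey) and 2 knockout (red) libraries each, with the group mean and SD as black lines and each axis from 0. Usp18 and Isg15 were higher in both Tbx21 knockout libraries, Zbp1 and Ly6a were not, and in the Ets1 knockout Isg15, Dhx58 and Ifi27l2a were lower while Zbp1 was higher.

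Loss of Irf9, the DNA-binding subunit of ISGF3, gave only falls among the called members. Of 26 tested, 0 rose and 9 fell, where 2.45% of 8901 genes rose and 2.48% fell (4.93% either way). The median log2 change of all tested members was -0.18 against 0.00 over all genes, so most members moved little. Among the 20 untested members was Usp18, which had 2.01, 5.68 and 4.32 CPM in the 3 controls and 0, 0.67, 0 and 0 CPM in the 4 knockout libraries.

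Ifi27l2a showed the clearest fall without Irf9, from 83.3, 74.5 and 74.9 CPM to 13.6, 20.8, 11.3 and 21.0 CPM (-2.24 ± 0.17 SE; adjusted p = 6.36e-11, edgeR). Ifi27l1 fell from 13.0, 23.4 and 10.1 CPM to 2.37, 2.68, 4.52 and 0.88 CPM (-2.57 ± 0.41). Oas3 fell from 25.6, 28.6 and 26.4 CPM to 9.61, 13.1, 10.3 and 1.88 CPM (-1.58 ± 0.27). Lgals3bp, a secreted glycoprotein, fell from 92.3, 92.8 and 103 CPM to 47.4, 53.0, 45.2 and 31.5 CPM (-1.11 ± 0.12). In these 4 genes no knockout library reached any control. Ifih1 fell by 0.75 on the log2 scale and Bst2 by 0.52, and Tap1, Pml and Ly6a by 0.23, 0.23 and 0.19.

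B cell markers summed to 1.5 to 9.8 CPM in the Irf9 knockout and 21.1 to 26.2 CPM in its controls, with none of the 8 genes above the filter; their part in the falls was not tested. Several library pairs of this experiment differed by little more than sampling noise, with a chi-square per degree of freedom of 1.08 for knockouts 3 and 4, 1.22 for knockouts 1 and 2 and 1.25 for controls 2 and 3. With each pair summed to 1 sample the falls of Ifi27l1, Ifi27l2a, Oas3 and Lgals3bp passed and the other 5 did not. Among pathway genes, Stat2, the partner of IRF9, fell by 0.59 on the log2 scale and Tmem173 (STING, an adaptor of DNA sensing) by 0.23, whereas Ifng (0.54 ± 0.13) and Ifngr1 (0.78 ± 0.14) rose. Of the 6 falls with a promoter sequence, 2 (Oas3 and Bst2) hold the ISRE letters shown above: 2 of 3 tested members with these letters fell, and 4 of 14 without them. DESeq2 called 6 of the 9 falls. Bst2 did not pass there, nor did Ifih1 and Pml, which lack the letters.

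Calls without Irf1 were also falls only, 0 up and 6 down of 38 members tested. Over all 11059 genes tested, 0.0452% rose and 0.434% fell (0.479% either way). The 6 were Zbp1 (-3.60 ± 0.58), Ifi27l1 (-3.23 ± 0.45), Usp18 (-3.14 ± 0.56), Oas3 (-2.80 ± 0.45), Parp14, an ADP-ribosyltransferase (-2.36 ± 0.43), and Ly6a (-1.01 ± 0.19). The median of the members was -0.75 against 0.02 over all genes. This fit had batch as a term and all 12 linked libraries.

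Usp18 stood at 1.35 CPM in the batch A knockout library and 1.31 and 1.44 CPM in the 2 of batch C, against 15.6 CPM in the batch A control, 11.6 and 12 CPM in batch B and 14.9 CPM in batch C. Zbp1 stood at 0, 1.97 and 4.91 CPM against 26.0, 15.5, 30.0 and 38.9 CPM. Oas3 stood at 5.38, 7.62 and 12.7 CPM against 58.4, 41.0, 59.0 and 70.2 CPM, and Ly6a at 809, 878 and 956 CPM against 1898, 1819, 1542 and 2013 CPM. None of these 4 overlapped. Within batches A and C the log2 ratios were -3.13 and -3.04 for Usp18, -5.73 and -3.32 for Zbp1, -3.32 and -2.73 for Oas3, -2.27 and -3.54 for Ifi27l1, -1.79 and -2.86 for Parp14, and -1.23 and -1.13 for Ly6a. Parp14 was uneven among controls, at 29.0, 17.4, 17.3 and 75.6 CPM, the last in batch C.

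The count for Irf1 rests on single libraries. It was 0 without the batch C control, 1 without the batch A knockout library, 3 without the batch A control and 0 with only the libraries of its own batches, although every log2 change kept its sign. Of the pathway genes, Ifng fell by 2.10 on the log2 scale. The Irf8 knockout, fitted with it, had no call among 38 members (0.0452% of genes called in either direction, 0.0362% higher and 0.00904% lower): 6 members had an unadjusted p under 0.05 with edgeR, and DESeq2 called 0.

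**Figure D4:**
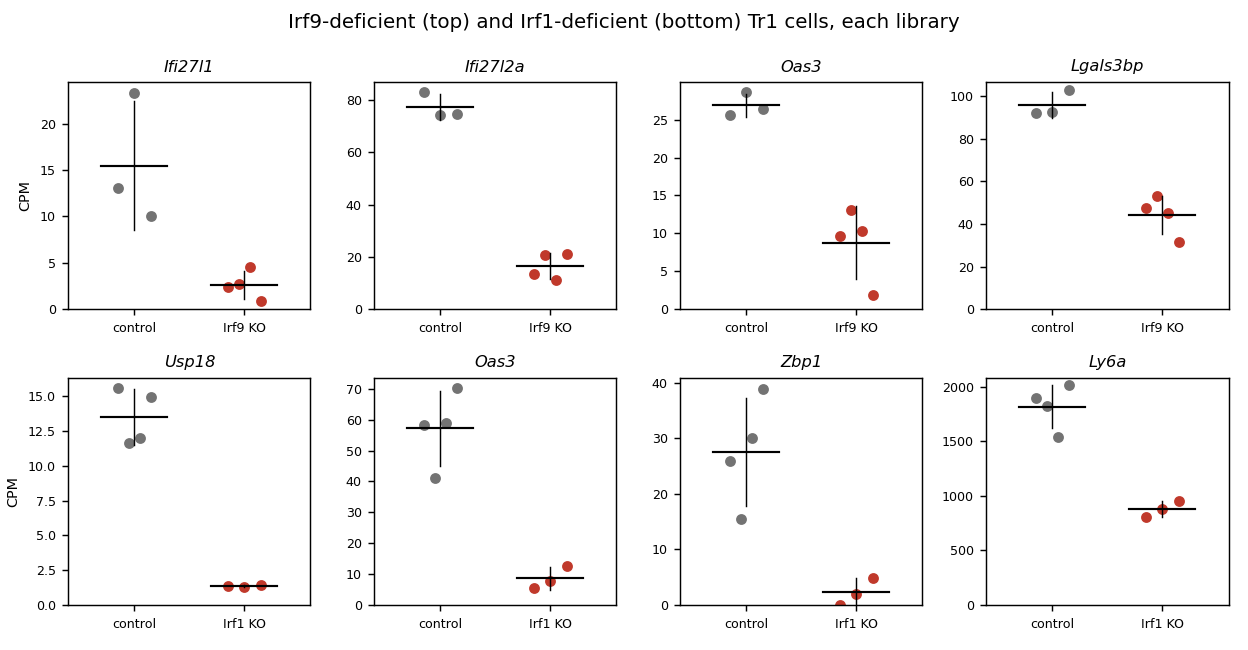
CPM of 4 genes in the Irf9 experiment (top, 3 control and 4 knockout libraries, BALB/c) and 4 in the Irf1 comparison (bottom, 4 linked control and 3 knockout libraries, C57BL/6), with the group mean and SD as black lines and each axis from 0. Every knockout library lay below every control library in all 8 panels, which is expected because the genes were chosen among members called lower.

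Loss of Ets1, a factor of resting T cells, moved members both ways. Of 39 tested, 5 rose and 13 fell, where 10% of 10786 genes rose and 10.3% fell (20.4% either way). DESeq2 called 11, 4 of them higher. Of the 3 Ifitm genes, Ifitm2 did not pass (0.10 on the log2 scale). Ifitm1 stood at 149 and 134 CPM against 3.28 and 7.68 CPM (4.71 ± 0.22 SE; adjusted p = 2.54e-07, edgeR), and Ifitm3 at 19.4 and 20.7 CPM against 6.58 and 4.89 CPM (1.83 ± 0.23). Zbp1 (0.90 ± 0.17), Ly6e (0.55 ± 0.07) and Nlrc5 (0.44 ± 0.12) were the other rises.

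The falls without Ets1 covered sensors and effectors. Isg15 stood at 5.76 and 6.06 CPM against 17.8 and 19.0 CPM (-1.61 ± 0.22; adjusted p = 0.000565, edgeR). Oasl1 stood at 0.21 and 0.90 CPM against 5.63 and 5.82 CPM (-3.29 ± 0.56). Ifit1 fell by 1.63, Ifit2 by 1.28, Ifi27l1 by 1.22, Xaf1, a pro-apoptotic gene, by 1.14, Ifi27l2a by 0.92 and Dhx58 by 0.88 on the log2 scale, and the groups did not overlap in the genes plotted. Irf7 fell by 1.69 ± 0.37 and Ifnar2, a chain of the type I receptor, by 0.59 ± 0.13, among 7 falls and 4 rises of 26 pathway genes tested, with Socs1 (0.93 ± 0.10) and Il6st, a chain of the IL-27 receptor (1.00 ± 0.14), among the rises. CD8 T and NK cell markers summed to 29.5 to 32.5 CPM against 10.6 to 15.7 CPM, and sex differed as said; their part was not tested.

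Prdm1 (Blimp-1) and Maf, both factors linked to IL-10 in T cells, were deleted alone and together in an experiment of deeper libraries, where small changes pass. Of 43 members tested, 5 rose and 5 fell without Prdm1 (4.97% of 11316 genes rose, 7.11% fell and 12.1% were called). Without Maf, 4 rose and 3 fell (3.93%, 5.09% and 9.02%), and without both, 5 rose and 9 fell (8.20%, 10.8% and 19.0%). The shares of members called were 10, 7 and 14 of 43. Median log2 changes of the members were -0.04, -0.10 and -0.18 against 0.01, 0.00 and 0.02 over all genes.

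Usp18 rose in each of the 3. It stood at 34.0, 30.6 and 33.1 CPM in the controls, at 60.9, 65.3 and 76.0 CPM without Prdm1, at 49.9, 47.1 and 58.4 CPM without Maf, and at 81.6 and 73.6 CPM without both. All knockout libraries lay above all controls, with log2 changes of 0.98 ± 0.09, 0.67 ± 0.09 and 1.16 ± 0.10. Ifi27l2a fell in each, from 543, 556 and 481 CPM to 427, 381 and 463 CPM, to 369, 414 and 381 CPM, and to 367 and 374 CPM (-0.38 ± 0.06, -0.43 ± 0.06 and -0.60 ± 0.07). Isg20 had the largest fall among the members called without Prdm1, from 9.57, 7.40 and 7.98 CPM to 3.32, 3.41 and 3.63 CPM (-1.34 ± 0.18). Zbp1 (-0.29), Ly6e (-0.27) and Ly6a (-0.22) also fell without Prdm1 alone. Isg20 (-0.78) and Ly6a (-0.23) were called lower without both factors as well. Other rises without Prdm1 were Ifitm1, Oas3 (0.32 ± 0.07) and Tap1 (0.16 ± 0.04), and without Maf Psmb8 rose (0.22 ± 0.05) while Dtx3l (-0.27 ± 0.07) and Parp9 (-0.20 ± 0.06) fell. Tap2 rose by 0.16, 0.20 and 0.30 in the 3 knockouts, each with an SE of 0.05. Without both factors Isg15 (-0.68 ± 0.18), Zbp1 (-0.42 ± 0.08), Ly6e (-0.41 ± 0.07) and Ddx58 (-0.38 ± 0.09) also fell, and 8 members were called without double knockout library 1 and also without library 2. In the pathway list, 5 rose and 4 fell of 27 tested without Prdm1, 0 rose and 7 fell without Maf, and 3 rose and 8 fell without both; Ifng fell in each (-0.32 ± 0.08, -0.64 ± 0.08 and -0.92 ± 0.09), and Irf7 fell without Maf (-0.75 ± 0.13) and without both (-0.63 ± 0.14).

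The 3 Ifitm genes were the only members for which the double knockout departed from the sum of the single ones (0 up and 3 down of 43; 0.557% of genes were higher, 0.539% lower and 1.10% either way). Ifitm2 stood at 106, 115 and 100 CPM in the controls, at 129, 127 and 121 CPM without Prdm1, at 121, 126 and 119 CPM without Maf, and at 97.5 and 99.3 CPM without both. Ifitm1 stood at 18.9, 25.8 and 15.8 CPM, then at 35.3, 36.8 and 25.2 CPM, at 39.4, 38.9 and 34.8 CPM, and at 29.4 and 27.8 CPM. Ifitm3 stood at 30.5, 30.4 and 22.9 CPM, then at 35.9, 33.9 and 36.7 CPM, at 32.4, 29.0 and 25.7 CPM, and at 23.5 and 19.1 CPM. Ifitm2 and Ifitm3 thus lay lower in both double knockout libraries than in any library without Prdm1 or Maf alone, whereas for Ifitm1 the double knockout overlapped the Prdm1 knockout. The interaction terms were -1.13 ± 0.22, -0.58 ± 0.10 and -0.82 ± 0.17 for Ifitm1, Ifitm2 and Ifitm3. Without double knockout library 2 only 1 of the 3 passed. B cell markers summed to 21.6 to 28.2 CPM without Prdm1 and 25.0 to 27.3 CPM without both, against 15.8 to 17.1 CPM in the controls. CD8 T and NK cell markers summed to 16.6 to 21.6 CPM without Prdm1, 9.9 to 12.5 CPM without Maf and 11.3 to 12.8 CPM without both, against 9.8 to 10.8 CPM, and Cd8a rose in each (5.43 ± 0.52, 2.69 ± 0.75 and 2.76 ± 0.77 on the log2 scale). The part of these markers was not tested.

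**Figure D5:**
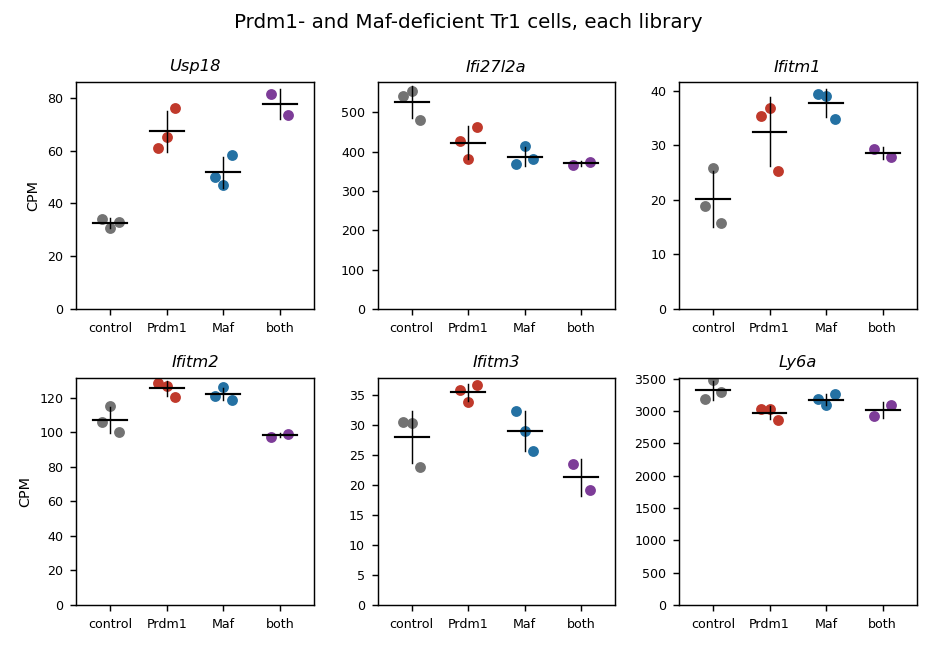
CPM of 6 genes in control (3 libraries), Prdm1 knockout (3), Maf knockout (3) and double knockout (2) cells, with the group mean and SD as black lines and each axis from 0. Usp18 was higher and Ifi27l2a lower in all 3 knockouts, and Ifitm2 and Ifitm3 stood lower without both factors than in either single knockout.

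Batf and Stat3 knockouts shared a rise of a scarce gene. Oas1a had 45.1 and 41.4 CPM in the Batf knockout and 19.4 CPM in the Stat3 knockout library, against 1.3, 0, 0 and 1.58 CPM in the linked controls, which both comparisons share. The log2 changes were 6.30 ± 0.81 for Batf (adjusted p = 0.000324, edgeR) and 5.47 ± 1.03 for Stat3, and no knockout library overlapped a control. Oas1a had 3, 0, 0 and 7 counts in these controls, so it passed the filter through the knockout libraries where it was high. A call there was therefore more likely. Stat3 had 1 library, assumed to vary like the others of the fit; DESeq2 called none of its members, and none was called without the first batch B control. For Batf 1 of 38 tested members rose (1.16% of genes) and 1 fell (2.88%; 4.04% either way), and for Stat3 1 rose (0.398%) and 0 fell (1.22%; 1.62% either way). The Batf fall was Dhx58, at 3.44 and 7.70 CPM against 32.9, 29.5, 11.3 and 33.3 CPM (-2.21 ± 0.50). Leaving out either Batf library, the batch A control or the first batch B control left 1 of these 2 calls. Within batches A and B the log2 ratios were 4.66 and 6.39 for Oas1a and -3.09 and -1.35 for Dhx58, and for Stat3, all in batch B, that of Oas1a was 5.31. The Irf8 knockout, against the same controls, had no Oas1a count in either library. CD8 T and NK cell markers summed to 44.1 to 62.4 CPM without Batf and 33.9 CPM without Stat3, against 14.6 to 20 CPM in the controls, and plasmacytoid dendritic cell markers other than Bst2 to 9.0 to 12.5 and 11.1 against 1.4 to 6.0 CPM. None of the 3 and 1 genes of these lists that were tested was called, and their part was not tested. Ifng stood higher in both knockouts (1.41 for Batf and 2.11 for Stat3 on the log2 scale), and Socs3, a STAT3 target, lower (-0.95 and -2.48).

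Ahr and Hif1a knockouts gave few calls. Without Ahr, 2 of 30 members rose and 0 fell (0.140% and 0.241% of genes; 0.381% either way), Ifi27l2a from 48.1 and 51.6 to 87.0 and 102 CPM (0.92 ± 0.14) and Ifi27l1 from 33.0 and 41.1 to 62.4 and 64.8 CPM (0.80 ± 0.17). The groups did not overlap, both genes and Ahr itself lie on chromosome 12, and without control 1 neither passed. Without Hif1a, 2 of 33 fell and 0 rose (4.19% and 1.36%; 5.55% either way), Dhx58 from 26.9 and 22 to 12.6 and 11.7 CPM and Ifi27l1, on the same chromosome as Hif1a, from 75.4 and 41.4 to 25.6 and 32.6 CPM. DESeq2 called neither, neither passed without control 1, and 7 members were called without knockout 1 and 6 without knockout 2. B cell markers summed to 110 to 181 CPM in the Hif1a knockout and 15.8 to 18.1 CPM in its controls, and CD8 T and NK cell markers to 14.7 to 20.5 against 7.7 to 10.5 CPM. The part of these markers was not tested, nor was that of the shared chromosome 12 in either knockout.

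In the libraries labelled Atf3 knockout, 7 of 30 members rose and 1 fell (3.32% and 4.87% of genes; 8.19% either way), with 1 called by DESeq2. Usp18 had 27.7 and 23.9 CPM against 12.6 and 14.0 CPM (0.94 ± 0.25), Lgals3bp 74.1 and 67.1 against 44.6 and 45.0 CPM (0.65 ± 0.15), and Ifitm2 12.6 and 10.6 against 41.2 and 31.4 CPM (-1.65 ± 0.24). These did not overlap. Ifi27l2a (0.60 ± 0.11), Zbp1 (0.58 ± 0.13), Psmb9, Parp14 (0.42 ± 0.13) and Tap1 were the other rises, and Ifng fell by 1.15 on the log2 scale, with 1 rise and 3 falls among 26 pathway genes. B cell markers summed to 76.3 to 80.3 CPM against 10.7 to 15.5 CPM, and CD8 T and NK cell markers to 15.2 to 17.3 against 91.4 to 132.7 CPM; their part and that of sex were not tested, and in bulk RNA fewer cells of a type and less RNA per cell cannot be told apart. Nfil3 had no call among 32 members tested (0.0207% of genes called, 0.0104% in each direction), and Fosl2 had none among 38 (0.632% called, 0.481% higher and 0.151% lower). At an unadjusted p under 0.05 edgeR gave 2 and 3 members, and DESeq2 called 0 in each; Fosl2 rests on 1 knockout library assumed to vary like its 2 controls.

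Neighbouring members did not always move together. Oasl1 and Oasl2 lie side by side on chromosome 5, and both rose without Irf4 and without Tbx21. Ifi27l1 and Ifi27l2a lie side by side on chromosome 12. Where both were called, they moved alike without Ahr, Ets1, Irf9 and Tbx21 and opposite ways without Irf4. In the libraries labelled Atf3 knockout Ifi27l2a rose, while Ifi27l1 averaged 30.7 against 43.6 CPM and did not pass. Without Prdm1, Maf or both, Ifi27l2a fell, and Ifi27l1, at means of 152, 146 and 159 against 140 CPM, did not pass. Psmb9 and Tap1 are neighbours on chromosome 17, and both rose in the libraries labelled Atf3 knockout (0.43 ± 0.11 and 0.36 ± 0.10); without Irf9 Tap1 passed and Psmb9 did not (-0.23 ± 0.06 and -0.14 ± 0.07). Ifit1 rose without Irf4 while Ifit2 did not pass (0.44 ± 0.22), and Ifit3 was below the filter. Rsad2 and Cmpk2 without Tbx21 had log2 changes of 1.92 ± 0.53 and 1.81 ± 0.54, neither past the threshold. Reads were counted without a stated strand, so transcripts that overlap on opposite strands cannot be told apart, and near-identical copies in the Oas, Ifit, Ifitm and Ifi27l families may share reads.

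Control levels differed between the BALB/c and C57BL/6 experiments, where strain and experiment cannot be told apart. Of 31 members with a mean of at least 5 CPM over control libraries, Usp18, Ifi27l1 and Ifitm2 were lower in all 3 BALB/c controls than in any of 25 C57BL/6 controls, and Zbp1, Parp14, Ly6e, Psmb9, Tap2 and Pml were higher in all. Over all 9580 genes of that level, 3.27% were lower and 10.5% higher. Usp18 ran from 2.01 to 5.68 CPM in BALB/c and from 7.37 to 38.5 CPM in C57BL/6 controls.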

How the data were processed

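Polyadenylated RNA of 2000 lysed cells per library was made into libraries with an adaptation of SMART-Seq2, per the labels' protocols. The authors deposited expected counts per gene, not scaled for depth, and TPM values, scaled for length and library; TopHat, RSEM and the build mm9 are named in the submitters' processing notes, with versions not given in the sources used here. For testing, each expected count was rounded; edgeR 4.0.16 ran in R 4.3.3 (filterByExpr, TMM, quasi-likelihood F-test, Benjamini-Hochberg over all genes of a fit, threshold 0.05). Totals of 743445 to 15221850 counts set the precision; floors of 3 counts cover counting error only. TPM served only to order levels.

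Each experiment was fitted alone with a mean per group. Prdm1, Maf and the double knockout shared a fit of 11 libraries, and Batf, Irf1, Irf8 and Stat3 a fit of 12 with batches A, B and C as terms, from the titles and, for C, by exclusion. The script was tested on simulated counts. CPM divide expected counts by a library's total; within-batch ratios add 0.5 CPM.

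Up to 8 rises and 8 falls per comparison were named by size among called members whose higher group averaged 5 CPM or more, with values in every library for up to 4, the targeted factor, called genes of the interferon pathway list (1 of which is not reported here) and neighbouring members. The members and lists were chosen with earlier results of these data known. Promoter sequences are from RefSeq. Coordinates of build mm9 were not used here.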

Additional observations from a re-analysis of the deposited data

Results flagged for a closer look

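For members averaging 5 CPM or more, the 4 linked controls and the 4 Irf9 knockout libraries were searched for a library that stands apart. Of 56 such sets, 5 had 1, where chance gives about 1 in 20 for independent libraries of 1 group. The linked controls span batches A, B and C, and some Irf9 knockout libraries were nearly alike, so that rate need not hold here. Dhx58 was at 11.3 CPM in linked control 3, of batch B, and at 29.5 to 33.3 CPM in the others. Bst2 was at 96.0 CPM in the same library and at 49.0 to 54.8 CPM in the others. Nlrc5 was at 116 CPM in linked control 4, of batch C, and at 30.0 to 43.3 CPM in the others. Eif2ak2 was at 9.82 CPM in Irf9 knockout 4 and at 8.32 to 8.38 CPM in the others, and Psmb8 was at 429 CPM in Irf9 knockout 3 and at 500 to 512 CPM in the others.

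The effect of the double deletion differed from the sum of those of Prdm1 and Maf for Ifitm1 by -1.13, for Ifitm2 by -0.58 and for Ifitm3 by -0.82 on the log2 scale (adjusted p = 0.00976, 0.00319 and 0.0157, edgeR). In the Cebpb libraries, which no comparison used, the 46 genes summed to 5093 and 5047 CPM in the knockout, a mean of 5070 CPM, and to 3868 and 3748 CPM in the controls. These libraries held only 30602 to 46237 counts, and 20 to 25 of the 46 genes had a count. That is too few for a comparison, and the difference was not tested.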

How the results depend on the processing

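Of the 128 calls on members, those on the interaction of Prdm1 and Maf included, 127 passed with DESeq2 size factors and 126 without a filter on low counts; DESeq2 kept 98 of 127, and 1 fit over all usable libraries kept 82 of 128. No call changed sign under any alternative run, and the cause of the differences below was not tested. In the fit over all libraries the counts of called members were 2 each for Prdm1, Maf and both, 0 for the interaction, 18 for Batf, 19 for Irf1, 4 for Irf8, 8 for Stat3, 0 for Ahr, 2 for Atf3, 1 for Fosl2, 4 for Hif1a and 29 for Tbx21. Without a filter they were 5 for the interaction and 4 for Batf. DESeq2 called 0 for Stat3, 1 for Ahr, 1 for Atf3, 11 for Ets1 and 0 for Hif1a. Irf1 had 0 with only the libraries of its own batches and 0 in batch C alone, where fewer libraries entered. With like pairs of libraries summed, chosen after seeing the data, Irf9 had 4. Leaving out each library in turn gave 7 to 12 for Prdm1, 5 to 8 for Maf, 8 to 13 for both, 1 to 4 for the interaction, 1 to 2 for Batf, 0 to 7 for Irf1, 0 to 1 for Stat3, 0 to 2 for Ahr, 6 to 8 for Atf3, 14 to 20 for Ets1, 0 to 7 for Hif1a, 24 to 31 for Irf4, 6 to 9 for Irf9 and 8 to 26 for Tbx21; where this left a group with 1 library, that library was assumed to vary like the others of its fit. Fosl2 without either control could not be fitted. With replicate numbers as a block, 115 of 119 calls passed, and Hif1a had 6, Ets1 17 and Tbx21 23. Over all genes the block raised the share called from 5.55% to 14.3% in Hif1a and from 6.72% to 16.2% in Tbx21. In Ets1 it lowered the share from 20.4% to 16.9%. Whether libraries of like number were paired is not stated. The samples share only a number: with 3 or more pairs not every correlation of deviations was over 0.1, and for 2 pairs it was 0.362 in Hif1a and 0.263 in Tbx21. In Ets1 it was -0.191, and the crossed pairing, chosen after seeing the data, gave 21 calls. Depth limits the scarce effectors: Ifit3, Oas2 and Rtp4 never passed the filter, and 20 members did not in Irf9.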
